A study of Microtus ochrogaster and Microtus pennsylvanicus and Peromyscus californicus with 10 samples.

Results

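The members described here are 155 protein IDs whose read levels differed at least 8-fold within the vole pair and at least 8-fold, with the opposite sign for mating system, within the Peromyscus pair. They were chosen on the deposited RPM values (read counts scaled to a common library total) themselves, from the 9375 IDs listed in all 4 rodent tables, and make up 1.65% of them. Of the 155 members, 108 were higher in Microtus ochrogaster than in Microtus pennsylvanicus and higher in Peromyscus maniculatus than in Peromyscus californicus. The other 47 were higher in M. pennsylvanicus and in P. californicus than in their partners. Because the ratios chose the members, the ratios below are a description and carry no test.

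The tissue was fore- and midbrain from male animals in reproductive state. Each of the 4 rodent libraries came from 1 pool of 3 animals of 1 species: M. ochrogaster (prairie vole), M. pennsylvanicus (meadow vole), P. californicus (California mouse) and P. maniculatus (deer mouse). No animal was treated and no genotype or age is given in the labels. The series title asks about brain expression tied to monogamy across vertebrates, and the whole series holds 10 such libraries.

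The prairie vole and the California mouse are known for pair bonds and paternal care. The meadow vole and the deer mouse are their textbook nonmonogamous counterparts. In prairie voles, work on pair bonding has centred on oxytocin, vasopressin and dopamine signalling in the forebrain. The labels give species and not mating systems, so this assignment is background knowledge. An ID that was higher in M. ochrogaster and in P. maniculatus was thus higher in the monogamous vole and lower in the monogamous Peromyscus species.

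The IDs carry the prefix ENSRNOP, which Ensembl uses for rat proteins, so the reads of 4 other rodents were summarised under rat identifiers. The tables pair no ID with a gene symbol. Of the 19750 IDs in any rodent table, 0 matched the gene table used here, so the members are named by ID, and no position, function or sequence is given. The labelled tissue could not be checked against brain markers for the same reason. RPM is not divided by transcript length, so a level is compared here between libraries for 1 ID, and ranks among IDs mix abundance with length. Species, animals, library and table change together, so a difference between brains cannot be told apart from a difference in how well a species' reads match a rat protein. In pooled brain RNA, fewer cells of a type and less RNA per cell cannot be told apart either.

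The RPM scale rested on 274693175 reads in M. ochrogaster and on 75649532 to 101971826 in the other 3 libraries. The M. ochrogaster table listed 18547 IDs and the others 13167 to 14200. No table lists an ID at 0, and the lowest listed count was 36 in M. ochrogaster and 1 to 7 in the others. Over the shared IDs, the median log2 RPM ratio was 0.12 for M. ochrogaster over M. pennsylvanicus and -0.22 for P. maniculatus over P. californicus, and TMM scaling, an alternative normalization, moved both to 0.03.

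Of the 9375 shared IDs, 986 (10.5%) were at least 8-fold higher in M. ochrogaster than in M. pennsylvanicus, and 550 (5.87%) at least 8-fold higher in P. maniculatus than in P. californicus. The 108 members in this direction (1.15% of shared IDs) were 10.95% of the first list and 19.6% of the second. In the other direction 554 IDs (5.91%) were at least 8-fold higher in M. pennsylvanicus and 783 (8.35%) in P. californicus. The 47 members (0.501% of shared IDs) were 8.48% of the first of these lists and 6.003% of the second. The rule decides which IDs are members, but not how large these shares are. For the 108 members, 10.95% stands beside the 5.87% of all shared IDs past 8-fold in Peromyscus, and 19.6% beside 10.5% in the voles. For the 47 members, 8.48% stands beside 8.35% in Peromyscus and 6.003% beside 5.91% in the voles. These differences were not tested. For comparison, 129 IDs (1.38%) passed 8-fold with M. ochrogaster and P. californicus as the higher libraries, and 29 (0.309%) with M. pennsylvanicus and P. maniculatus. The counts of members thus fell between those of the IDs that moved in the same direction for mating system. The lists behind these combinations differ in size (986, 554, 550 and 783 IDs), so the counts alone do not rank the combinations. Of the 986 IDs, 410 (41.6%) were within 2-fold between P. maniculatus and P. californicus, as were 369 (66.6%) of the 554, beside 60.7% of all shared IDs.

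**Figure D1:**
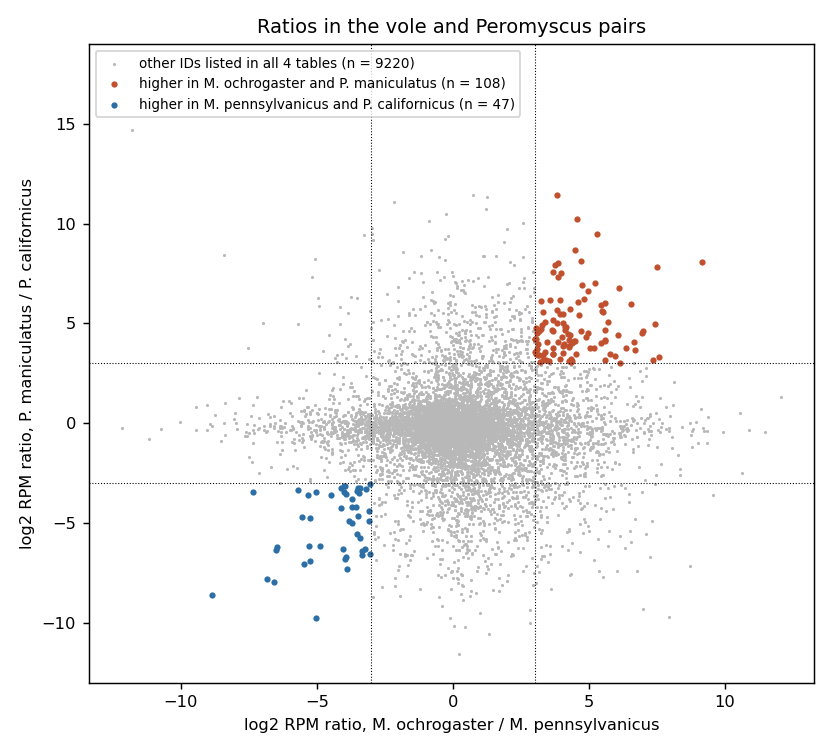
Each point is 1 of the 9375 shared IDs, with the log2 RPM ratio of the voles on the x axis and of the Peromyscus species on the y axis, and dotted lines at an 8-fold ratio. The 108 members in the upper right and the 47 in the lower left lie past both lines by choice, and the IDs along the axes differ mainly in 1 pair.

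The members higher in M. ochrogaster and P. maniculatus had ordinary levels in those libraries and were among the lowest IDs of the other pair of libraries. Their median was 27.3 RPM in M. ochrogaster (range 1.63 to 354) and 30.5 RPM in P. maniculatus (range 1.60 to 3510). The median over all shared IDs was 23.0 and 23.3 RPM in these libraries. In M. pennsylvanicus their median was 1.08 RPM (range 0.145 to 29.3) and in P. californicus 0.677 RPM (range 0.0471 to 51.0), where all shared IDs had medians of 22.7 and 29.7 RPM. The median member stood at the 54.9th percentile of shared IDs in M. ochrogaster and the 56.4th in P. maniculatus, but at the 7.53rd in M. pennsylvanicus and the 4.43rd in P. californicus. In the bottom 20% of shared IDs were 88 of the 108 members in M. pennsylvanicus and 95 members in P. californicus. For 30 members both lower libraries were under 1 RPM. These lower values were still counts of reads: the median member had 82.0 reads in M. pennsylvanicus and 57.5 reads in P. californicus. Fewer than 10 reads in a library were found for 2 of 108 members, a larger share than the 0.384% of shared IDs.

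The 47 members of the other direction stood higher among the IDs of their higher libraries. Their median was 68.0 RPM in M. pennsylvanicus (range 6.21 to 444) and 58.8 RPM in P. californicus (range 2.54 to 1262), at the 75.7th and 68.6th percentile of shared IDs. In M. ochrogaster their median was 2.04 RPM (range 0.331 to 26.6) and in P. maniculatus 1.02 RPM (range 0.0981 to 54.0), at the 5.21st and 7.13th percentile. None of these 47 members had fewer than 10 reads in any library, and the median member had 560 reads in M. ochrogaster and 104 reads in P. maniculatus. In each direction, then, most of these IDs ranked low in the lower libraries, which the 8-fold rule itself makes likely. In the higher libraries they had levels like those of many other IDs.

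**Figure D2:**
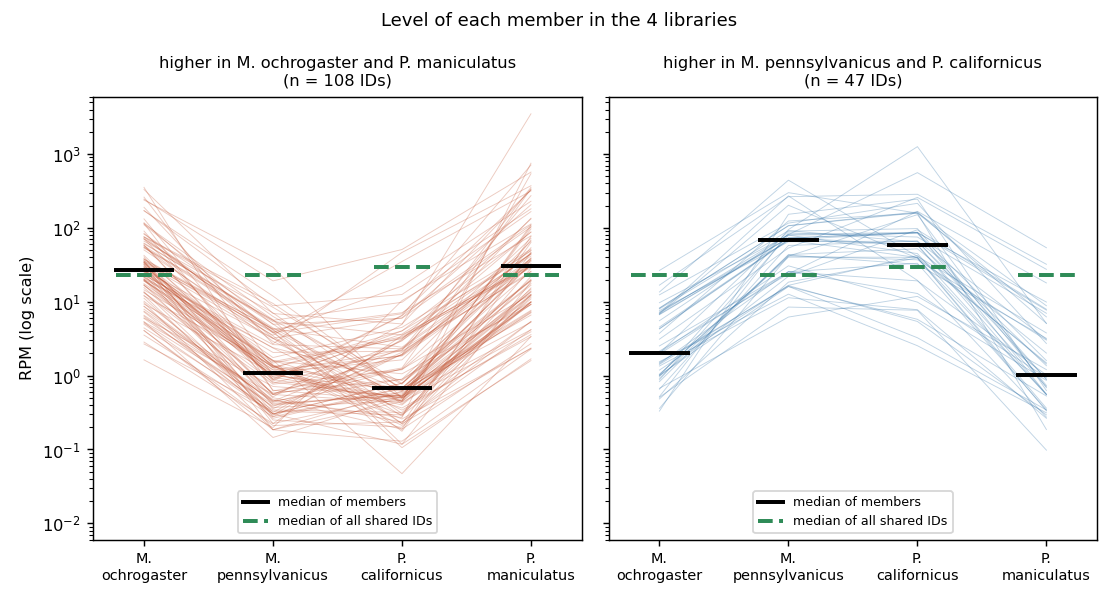
Each thin line joins the RPM of 1 member in the 4 libraries on a log scale, with the median of members (black) and of all 9375 shared IDs (green, dashed). In the left panel the members' medians are 27.3, 1.08, 0.677 and 30.5 RPM from left to right, and in the right panel 2.04, 68.0, 58.8 and 1.02 RPM.

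Ranked by the smaller of its pair ratios, the first of the 108 members was ENSRNOP00000010827. It had 354 RPM in M. ochrogaster and 339 RPM in P. maniculatus, against 0.621 RPM in M. pennsylvanicus and 1.27 RPM in P. californicus. The higher libraries were nearly equal although they belong to different genera. The ratio was 570 in the voles (95% counting interval 429 to 776) and 267 in Peromyscus (221 to 325). These intervals, here and below, are exact binomial ones that cover counting error only, not the spread between animals. ENSRNOP00000059684 had the same form, with 115 RPM in M. ochrogaster and 104 RPM in P. maniculatus, and 0.635 RPM in M. pennsylvanicus and 0.459 RPM in P. californicus. Its ratios were 181 in the voles (136 to 246) and 227 in Peromyscus (166 to 319). With 1 RPM added to every level, which damps ratios of low values, the smaller ratios of these IDs were 149.6 and 70.9.

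ENSRNOP00000066132 had 331 RPM in M. ochrogaster, 329 in P. maniculatus, 6.94 in M. pennsylvanicus and 5.01 RPM in P. californicus. It was 1 of only 4 members of this direction that ranked in the upper 3125 of shared IDs by mean log2 RPM. Its lower libraries held 525 and 426 reads, so its ratios of 47.8 (43.8 to 52.1) and 65.5 (59.6 to 72.3) were among the more precisely counted. ENSRNOP00000018756 had 23.7 RPM in M. ochrogaster and 12.5 RPM in P. maniculatus, against 0.251 in M. pennsylvanicus and 0.200 RPM in P. californicus. Its lower values rested on 19 and 17 reads, and its ratios of 94.2 (60.3 to 157) and 62.6 (38.9 to 108) have wide intervals. Its smaller ratio was 11.3 with 1 RPM added.

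Several members of this direction were far higher in P. maniculatus than in any other library. ENSRNOP00000018629 had 3510 RPM there, the highest level of any member, against 20.4 RPM in M. ochrogaster, 4.94 in P. californicus and 0.516 RPM in M. pennsylvanicus. Its Peromyscus ratio was 710 (645 to 783) and its vole ratio 39.5 (28.9 to 55.6). ENSRNOP00000051102 had 752 RPM in P. maniculatus, 6.57 in M. ochrogaster, 0.463 in M. pennsylvanicus and 0.271 RPM in P. californicus, which gave the largest Peromyscus ratio of all members, 2778 (1851 to 4383). ENSRNOP00000011756 had 543 RPM in P. maniculatus and 8.65, 0.370 and 0.459 RPM in M. ochrogaster, M. pennsylvanicus and P. californicus. For these 3 IDs the levels in M. ochrogaster were below the median of shared IDs, so they exceeded a library's median in P. maniculatus only. ENSRNOP00000027198 lay between the forms, with 711 RPM in P. maniculatus, 58.2 in M. ochrogaster, 6.49 in P. californicus and 0.846 RPM in M. pennsylvanicus. With 1 RPM added, the smaller ratio was 32.1 for ENSRNOP00000027198 and 14.1 for ENSRNOP00000018629. It was 5.18 for ENSRNOP00000051102 and 7.04 for ENSRNOP00000011756, which would then not be members.

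ENSRNOP00000013985 had 34.1 RPM in M. ochrogaster, 135 in P. maniculatus, 0.793 in M. pennsylvanicus and 2.201 RPM in P. californicus. ENSRNOP00000007461 had 5.37 RPM in M. ochrogaster, 68.4 in P. maniculatus, 0.145 in M. pennsylvanicus (11 reads) and 0.518 RPM in P. californicus. In both IDs the Peromyscus libraries were each higher than the vole library of the same rank. Their smaller ratios with 1 RPM added were 19.6 and 5.56, the latter below the threshold. ENSRNOP00000066239 was well covered in its lower libraries too, at 19.2 RPM in M. pennsylvanicus and 51.0 RPM in P. californicus, against 246 in M. ochrogaster and 571 RPM in P. maniculatus. Its ratios were 12.8 (12.1 to 13.5) and 11.2 (10.8 to 11.5), and its groups did not overlap.

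Some members had a level close to that of another member in each of the 4 libraries. ENSRNOP00000045146 had 12.2, 0.264, 0.671 and 31.9 RPM in M. ochrogaster, M. pennsylvanicus, P. californicus and P. maniculatus. ENSRNOP00000066181 had 13.7, 0.304, 0.789 and 38.6 RPM in the same order, so that the largest difference between the IDs in any library was 1.21-fold. With 1 RPM added, their smaller ratios of 46.2 and 45.05 became 10.44 and 11.3. With a tolerance of 1.3-fold in every library, chosen after the values were seen, 4 pairs of IDs matched among the 108 members and 2 among the 47. Matching pairs were not counted over all shared IDs, so whether these counts are unusual is unknown. The sources used here do not say how reads that fit several proteins were counted, and whether the IDs of such a pair share reads was not tested.

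**Figure D3:**
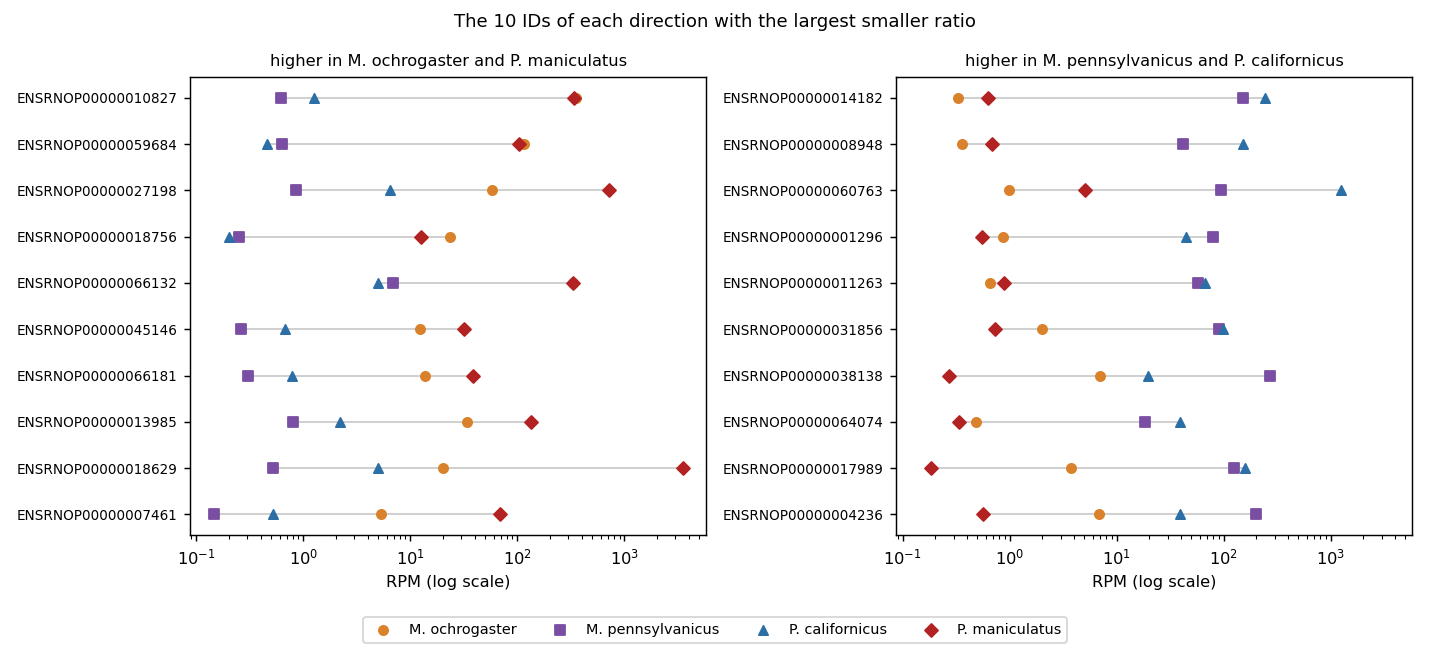
Each row is 1 ID and each symbol its RPM in 1 library on a log scale, for the 10 IDs of each direction with the largest value of the smaller of its 2 pair ratios. ENSRNOP00000010827 (top left) had 354 and 339 RPM in its higher libraries, whereas ENSRNOP00000018629 had 20.4 RPM in M. ochrogaster and 3510 RPM in P. maniculatus.

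Among the 47 members higher in M. pennsylvanicus and P. californicus, ENSRNOP00000014182 ranked first by the smaller of its pair ratios. It had 153 RPM in M. pennsylvanicus and 246 RPM in P. californicus, against 0.331 RPM in M. ochrogaster and 0.628 RPM in P. maniculatus. Its ratios were 462 in the voles (376 to 575) and 391 in Peromyscus (306 to 508), and its smaller ratio exceeded that of every member of the other direction. ENSRNOP00000008948 had 41.5 RPM in M. pennsylvanicus and 151 RPM in P. californicus, against 0.360 in M. ochrogaster and 0.686 RPM in P. maniculatus. Both IDs were under 1 RPM in each lower library, and with 1 RPM added their smaller ratios were 116 and 31.2.

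ENSRNOP00000001296 had 79.9 RPM in M. pennsylvanicus and 45.0 RPM in P. californicus, and 0.877 and 0.549 RPM in M. ochrogaster and P. maniculatus. ENSRNOP00000011263 had 57.9 and 66.4 RPM in M. pennsylvanicus and P. californicus, and 0.655 and 0.892 RPM in M. ochrogaster and P. maniculatus. ENSRNOP00000031856 had 90.5 and 98.1 RPM in the higher libraries, and 2.02 and 0.735 RPM in M. ochrogaster and P. maniculatus. In these 3 IDs the higher libraries of the separate genera were within 2-fold of each other. Their smaller ratios with 1 RPM added were 29.7, 35.6 and 30.2.

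ENSRNOP00000064074 had modest levels in its higher libraries, with 18.5 RPM in M. pennsylvanicus, 39.4 in P. californicus, 0.484 in M. ochrogaster and 0.333 RPM in P. maniculatus. ENSRNOP00000017989 had 124 and 158 RPM in M. pennsylvanicus and P. californicus, 3.75 RPM in M. ochrogaster and 0.186 RPM (19 reads) in P. maniculatus. The latter had the largest Peromyscus ratio of this direction, 849 (544 to 1411), against a vole ratio of 33.1 (31.1 to 35.4). The smaller ratio of ENSRNOP00000064074 was 38.1, or 13.1 with 1 RPM added.

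The highest level of this direction was that of ENSRNOP00000060763, at 1262 RPM in P. californicus, with 94.99 RPM in M. pennsylvanicus, 5.09 in P. maniculatus and 0.983 RPM in M. ochrogaster. Its smaller ratio was 96.6, or 48.4 with 1 RPM added. ENSRNOP00000022939 had 561 RPM in P. californicus and 54.0 RPM in P. maniculatus, against 81.3 in M. pennsylvanicus and 7.06 RPM in M. ochrogaster. Its groups were close, since the lower Peromyscus library (54.0 RPM) reached near the higher vole library (81.3 RPM). ENSRNOP00000017730 was highest in a vole, with 444 RPM in M. pennsylvanicus, 41.3 in P. californicus, 13.6 in M. ochrogaster and 3.79 RPM in P. maniculatus.

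ENSRNOP00000038138 and ENSRNOP00000004236 were likewise highest in M. pennsylvanicus, at 272 and 203 RPM. In P. californicus they had 19.5 and 39.0 RPM, in M. ochrogaster 7.004 and 6.83 RPM, and in P. maniculatus 0.275 and 0.559 RPM. Their levels in P. californicus were thus only 2.78-fold and 5.71-fold above those in M. ochrogaster. The smaller ratio of ENSRNOP00000038138 was 38.8, or 16.1 with 1 RPM added. ENSRNOP00000021368 had 301 RPM in M. pennsylvanicus, 159 in P. californicus, 26.6 in M. ochrogaster and 6.25 RPM in P. maniculatus. ENSRNOP00000045121 had 265 and 286 RPM in M. pennsylvanicus and P. californicus, and 16.8 and 32.2 RPM in M. ochrogaster and P. maniculatus. Its smaller ratio was 8.87, or 7.43 under TMM scaling, which is below the threshold. ENSRNOP00000021368, ENSRNOP00000022939 and ENSRNOP00000045121 were the 3 members of this direction that ranked in the upper 3125 of shared IDs by mean log2 RPM.

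The rule sets the order within a genus and not across genera. Across genera, 103 of the 108 members (95.4%) had both higher libraries above both lower ones, beside 12.6% of all shared IDs with M. ochrogaster and P. maniculatus on top. All 47 members of the other direction had M. pennsylvanicus and P. californicus above the remaining libraries, beside 17.0% of shared IDs. The 8-fold ratios required within each genus make such an order likely, so no weight is put on these shares. In 62 of the 108 members and 30 of the 47, the lowest of the higher libraries was at least 8-fold above the highest of the lower ones. Every shared ID with such a gap meets the rule. The 0.661% and 0.32% of shared IDs that have it are therefore these same members and give no comparison. The 5 members whose groups overlapped were ENSRNOP00000045238, ENSRNOP00000007407, ENSRNOP00000040830, ENSRNOP00000003255 and ENSRNOP00000034905, named because they are the exceptions. ENSRNOP00000003255, for example, had 239 RPM in M. ochrogaster and 29.3 RPM in M. pennsylvanicus, both above the 9.29 RPM of P. maniculatus and the 0.494 RPM of P. californicus. ENSRNOP00000040830 was the reverse, with 1.63 and 0.198 RPM in the voles and 113 and 10.38 RPM in P. maniculatus and P. californicus. The smaller ratios of these 5 IDs with 1 RPM added were 2.199 to 6.88, all below the threshold.

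The highest library was shared out almost evenly. Among the 108 members it was P. maniculatus for 58 and M. ochrogaster for 50, and the lowest was M. pennsylvanicus for 56 and P. californicus for 52. Among the 47 members the highest was P. californicus for 25 and M. pennsylvanicus for 22, and the lowest P. maniculatus for 28 and M. ochrogaster for 19. By the rule, M. ochrogaster, the deepest library and the one with the most IDs, could be the highest only among the 108 members.

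The size of the difference often differed between the pairs. The vole ratio had a median of 19.1 among the 108 members (range 8.001 to 570) and the Peromyscus ratio 22.4 (8.02 to 2778). Among the 47 the medians were 15.8 (8.21 to 462) and 26.9 (8.10 to 849). The ratios of the pairs were within 2-fold of each other for 47 of the 108 members and for 23 of the 47. The smaller ratio was that of the voles for 62 of the 108 and 28 of the 47. A Peromyscus ratio of at least 100 was found for 16 and 9 members, and a vole ratio of at least 100 for 9 and 3. Ratios of at least 100 were not counted over all shared IDs, so this contrast cannot be called particular to the members.

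The rule does not compare the higher library of 1 genus with that of the other. The levels in M. pennsylvanicus and P. californicus were within 2-fold of each other for 31 of the 47 members (66.0%), with a median difference of 1.53-fold. Over all shared IDs these libraries were within 2-fold for 57.2%, with a median difference of 1.72-fold. The levels in M. ochrogaster and P. maniculatus were within 2-fold for 42 of the 108 members (38.9%), with a median difference of 2.63-fold. Over all shared IDs these libraries were within 2-fold for 46.0%, with a median difference of 2.19-fold. They were thus further apart than M. pennsylvanicus and P. californicus over shared IDs in general as well. Levels were at least 8-fold apart for 18 of the 108 members and 3 of the 47, beside 17.6% and 15.7% of shared IDs. Across the 47 members, log2 RPM in M. pennsylvanicus and P. californicus correlated at r = 0.62, against 0.61 across all 9375 shared IDs. Across the 108 members, log2 RPM in M. ochrogaster and P. maniculatus correlated at r = 0.24, against 0.52 across all shared IDs. These correlations run across IDs of the same pair of libraries, which are not independent replicates, and the choice of members narrows the range of levels. The difference between the directions was not tested.

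**Figure D4:**
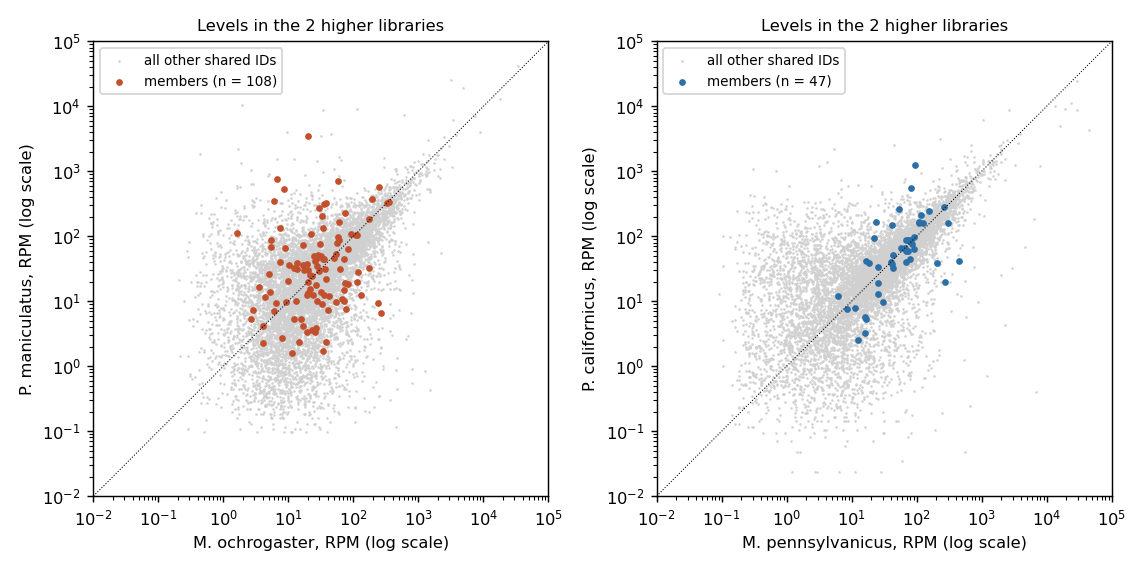
Each point is 1 ID, with RPM in the higher vole library on the x axis and in the higher Peromyscus library on the y axis, both on log scales, and a dotted line of equal levels. The median difference was 2.63-fold for the 108 members in the left panel (2.19-fold for all shared IDs) and 1.53-fold for the 47 in the right panel (1.72-fold for all shared IDs).

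The rule leaves the mean level of a genus free. The geometric means of the vole and Peromyscus libraries were within 2-fold for 34 of the 108 members (31.5%) and 20 of the 47 (42.6%), beside 56.7% of shared IDs. In the remaining members of the first direction, the voles were more than 2-fold higher for 35 and the Peromyscus species for 39. In the other direction the voles were more than 2-fold higher for 20 and the Peromyscus species for 7. The same split was not counted over all shared IDs, so it cannot be called particular to the members.

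Members were found mainly among IDs of low mean level. When shared IDs were divided into low, middle and high groups of 3125 by mean log2 RPM, 86 of the 108 members were in the low group (2.75% of its IDs), 18 in the middle group (0.576%) and 4 in the high group (0.128%). The 47 members were spread over 26, 18 and 3 (0.832%, 0.576% and 0.096%). A low value in 2 of 4 libraries lowers the mean, so the rule itself moves members towards the low group. In that group the median log2 ratio of all IDs was 0.95 for M. ochrogaster over M. pennsylvanicus and -0.38 for P. maniculatus over P. californicus. The vole pair thus leaned towards M. ochrogaster among low IDs, where 605 IDs were at least 8-fold higher in M. ochrogaster and 149 IDs in M. pennsylvanicus. Subtracting the trend of each pair with mean level, a step chosen after seeing the data, gave 86 members higher in M. ochrogaster and P. maniculatus and 57 in the other direction. Of the original members, 73 of the 108 and 40 of the 47 remained.

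Fewer IDs passed at a higher fold, and the balance of the directions changed with the fold. At 4-fold in both pairs 280 IDs were higher in M. ochrogaster and P. maniculatus and 145 in the other direction, and at 16-fold 44 and 14. At 32-fold the counts were 11 and 9, and at 64-fold the order turned, with 3 and 5 IDs. The counts with the same direction for mating system were 355 and 75 at 4-fold (M. ochrogaster and P. californicus higher, and M. pennsylvanicus and P. maniculatus higher). They were 44 and 11 at 16-fold, 18 and 5 at 32-fold and 7 and 2 at 64-fold. The IDs high in M. ochrogaster and P. maniculatus were therefore as many as those high in M. ochrogaster and P. californicus at 16-fold. At 4-fold, 8-fold, 32-fold and 64-fold they were fewer.

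**Figure D5:**
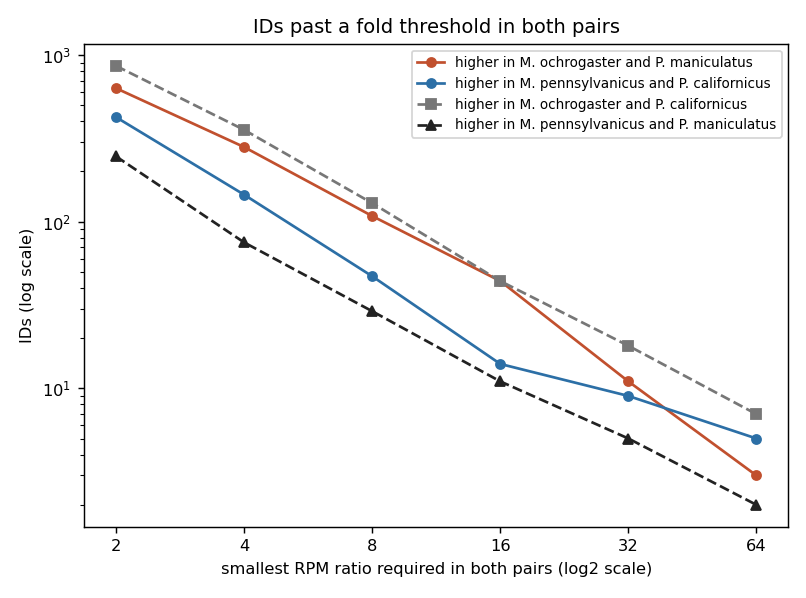
The number of shared IDs on a log scale whose RPM ratio passes the fold on the x axis in both pairs, for the 4 combinations of higher libraries. At 8-fold the counts are 108 and 47 for the members (solid lines) and 129 and 29 for IDs that moved in the same direction for mating system (dashed lines).

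Close to the threshold, membership rested on small differences. Just inside were ENSRNOP00000034905, with a vole ratio of 8.001 (7.43 to 8.63), ENSRNOP00000022059, with a Peromyscus ratio of 8.02, and ENSRNOP00000007321, with a vole ratio of 8.13. Just outside were ENSRNOP00000045155, at 7.98 in the voles, ENSRNOP00000015131, at 7.97 in Peromyscus, and ENSRNOP00000006610, at 7.97 in the voles. ENSRNOP00000015131 had 396 RPM in M. ochrogaster, 291 in P. maniculatus, 36.6 in P. californicus and 3.94 RPM in M. pennsylvanicus. In the other direction ENSRNOP00000045937 (8.10 in Peromyscus), ENSRNOP00000038073 (8.21 in the voles) and ENSRNOP00000012691 (8.41 in the voles) were just inside. ENSRNOP00000021833 (7.92 in Peromyscus), ENSRNOP00000001979 (7.58 in the voles) and ENSRNOP00000011378 (7.55 in Peromyscus) were just outside. With 1 RPM added, the smaller ratios of the 6 IDs just inside were 2.696 to 7.87. Counting error alone left the lower bound of both ratios at 8 or more for 82 of the 108 members and 42 of the 47.

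Each direction took up a small part of the reads. The 108 members summed to 5317 RPM in M. ochrogaster, 262 in M. pennsylvanicus, 335 in P. californicus and 12214 RPM in P. maniculatus. The 47 members summed to 209, 3867, 5352 and 227 RPM in the same order. ENSRNOP00000018629 alone gave 3510 of the 12214 RPM in P. maniculatus. With 1 library per species, none of these differences has a replicate check, and how much animals of 1 species differ is unknown.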

How the data were processed

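Per the labels, RNA was extracted with Trizol and libraries were made with a NEB small RNA kit, although the design text speaks of mRNA. The submitters' processing notes name Trimmomatic, BWA and SAMtools. Tool versions, reference sequences and read assignment were not given in the sources used here. The tables deposited by the authors give a raw count and an RPM value per protein ID. The deposited RPM equals the raw count scaled by 1 constant per library, of which the listed counts make up 93.8% to 95.6% in the rodents. The other 6 tables hold IDs of other prefixes and were not used.

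Ratios were taken on the deposited RPM without pseudocount or filter, for IDs listed in all 4 rodent tables. Intervals are exact binomial (Clopper-Pearson, 95%) and cover counting error only. They treat each read as an independent molecule, which reads without molecular identifiers are not, so they may be too narrow. There are no replicates, so no statistical test of a difference was made. The IDs named in each direction are the 10 members with the largest smaller ratio among those with at least 10 reads in every library, the 5 with the highest RPM, and the 3 IDs nearest the threshold on either side. The members whose groups overlap were named after their values were seen. Gene lists and cell type markers could not be applied without gene symbols. Members, lists and rules were chosen with earlier results of these data known.

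Alternatives used edgeR 4.0.16 (TMM) and DESeq2 1.42.0 (size factors) in R 4.3.3, other totals, filters, folds, a pseudocount of 1 RPM, unlisted IDs at their table's lowest count, and removal of the trend with mean level (running median over 500 IDs). The code that applies the rule was checked on simulated counts, which give no result used here, in Python 3.11.15 with pandas 2.3.3 and scipy 1.17.1.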

Additional observations from a re-analysis of the deposited data

Results flagged for a closer look

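The difference between the monogamous and the nonmonogamous species had opposite signs in the voles and in Peromyscus for 108 IDs higher in M. ochrogaster and P. maniculatus and for 47 IDs higher in M. pennsylvanicus and P. californicus. These IDs appear here because the libraries of 1 genus moved one way and those of the other genus the opposite way, which is how they were chosen. The difference between the genera was not tested.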

How the results depend on the processing

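Under other scalings (TMM factors, DESeq2 size factors, listed counts or counts over shared IDs as totals) the members numbered 109 to 124 with M. ochrogaster and P. maniculatus higher and 41 to 48 in the other direction, and at least 100 of the 108 and 41 of the 47 were among them. The counts whose higher libraries both exceeded the lower ones moved from 103 to between 104 and 119, and from 47 to between 41 and 48. A minimum of 10 RPM in both higher libraries left 67 of 108 and 39 of 47 members, and ratios of RPM + 1 left 55 and 32. A fold of at least 4 gave 280 and 145 IDs, and a fold of at least 16 gave 44 and 14. With IDs listed in at least 2 tables and unlisted IDs set to the lowest listed count, 1501 and 176 IDs passed, or 89.5% in the first direction against 69.7% as reported, so the balance of the directions depends on how unlisted IDs are treated. An unlisted ID has no known count, and M. ochrogaster lists the most IDs. The filled values also differed, at 0.131 RPM in M. ochrogaster and 0.0925 RPM in M. pennsylvanicus. They were 0.0588 RPM in P. maniculatus and 0.0118 RPM in P. californicus. In each genus the lower fill thus made an 8-fold ratio easier to reach in the first direction. Removal of the trend with mean level, chosen after seeing the data, gave 86 and 57. The minimum of 10 reads left 106 and 47. Of the 37 named members, 31 to 36 stayed at 8 or more under the other scalings and 24 with RPM + 1, and no ratio turned its direction. No paired analysis was possible because each species has 1 library and the labels give no replicate numbers. Leaving out a library removes the ratio of its pair, so this was not run.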

Other observations

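Of the IDs that cannot be members because a table does not list them, 1068 were listed in M. ochrogaster and P. maniculatus and in neither of the other rodent tables, and 92 in M. pennsylvanicus and P. californicus only. At least 10 RPM in both listing libraries was found for 68 and 16 of them, and at least 50 RPM for 15 and 6. ENSRNOP00000009153 had 458 RPM in M. ochrogaster and 300 RPM in P. maniculatus, and ENSRNOP00000015718 had 201 and 189 RPM. In the other direction ENSRNOP00000013629 had 298 RPM in M. pennsylvanicus and 246 RPM in P. californicus. These IDs were chosen for their levels after the values were seen. For comparison, 752 IDs were listed in M. ochrogaster and P. californicus only, 70 of them at 10 RPM or more in both, and 98 in M. pennsylvanicus and P. maniculatus only, 8 of them at that level. A fold is not given, since an unlisted ID has no value.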
